A study of Mus musculus with 16 samples.

Results

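The genes described here are 22 footprint-rich mRNAs of RAW264.7 cells, those that gave at least 4 ribosome footprint counts for every count of input RNA. They were chosen from the deposited counts: the 8 input libraries had to sum to at least 400 counts for the gene, and the 8 footprint libraries to at least 4 times that sum. Histones, ribosomal proteins, respiratory chain and ATPase subunits and proteasome subunits were left out by the start of their names. Of 13832 genes in the table, 8172 had enough input and an admitted name, and the 22 are 0.269% of these. The level of the ratio therefore made the choice, and it is described below without a test. What the choice did not use is whether the ratio, the input or the footprints moved after stimulation.

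RAW264.7 is a mouse macrophage-like tumour line, here a single line with no genetic change named in the labels. Cells were left untreated, or were given 100 ng/ml lipopolysaccharide (LPS, a component of the bacterial outer membrane) for 15, 30, 45, 60, 75 or 90 min or for 16 h. Each of these 8 conditions gave 1 footprint library and 1 input library made from a part of the same lysate, so no condition has a replicate and no untreated culture accompanied the later times. All lysates were made with cycloheximide, a blocker of translation elongation.

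Ribosome profiling sequences the short RNA fragments that a translating ribosome shields from nuclease, whereas the input is the cytoplasmic RNA itself, broken at random. The number of footprints relative to input is called ribosome density. It depends on how often ribosomes start on the mRNA, how fast they move and how much of the mRNA is coding, because footprints lie almost only in the coding part while input fragments come from the untranslated parts as well. In macrophages, LPS acts through Toll-like receptor 4 and changes both the transcription and the translation of many mRNAs.

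Every library held between 6702930 and 6702932 counts. All 8 macrophage markers checked were present, with summed input of 13104 to 17305 counts per library. Of the markers of other cell types, 1 of 5 for fibroblasts, 2 of 4 for epithelium and 1 of 5 for lymphocytes had a row, and none of these lists summed to more than 6 counts in a library.

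The coding sequences of 4 of the footprint-rich genes are printed here because they show 2 annotation features of the group, short coding sequences and stretches shared with other genes. They were read from the GENCODE M21 transcripts (build GRCm38, which is mm10), 5′ to 3′ on the coding strand from the start codon, whole or, for Fkbp1a and Dap, bases 1 to 300. Capitals mark bases that lie in a run of 29 bases also found in a transcript of another gene. Fragments were size-selected at 25 to 35 nt, so a footprint from a capital stretch can match more than 1 place. Fkbp1a (chromosome 2, 151542483 to 151561692, plus strand) and S100a11 (chromosome 3, 93520488 to 93526287, plus strand) had the highest ratios. Tmsb10 (chromosome 6, 72957347 to 72958748, minus strand) has the shortest coding sequence of the group, and Dap (chromosome 15, 31224314 to 31274341, plus strand) is a short one with no shared stretch.

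Fkbp1a: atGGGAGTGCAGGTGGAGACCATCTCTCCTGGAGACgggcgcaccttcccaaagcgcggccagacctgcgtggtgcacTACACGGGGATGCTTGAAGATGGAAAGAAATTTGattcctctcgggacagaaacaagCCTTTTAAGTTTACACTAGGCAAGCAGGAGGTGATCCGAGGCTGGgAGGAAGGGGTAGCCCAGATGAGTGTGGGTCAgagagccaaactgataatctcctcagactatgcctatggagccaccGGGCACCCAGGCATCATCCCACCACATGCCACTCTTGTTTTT
S100a11: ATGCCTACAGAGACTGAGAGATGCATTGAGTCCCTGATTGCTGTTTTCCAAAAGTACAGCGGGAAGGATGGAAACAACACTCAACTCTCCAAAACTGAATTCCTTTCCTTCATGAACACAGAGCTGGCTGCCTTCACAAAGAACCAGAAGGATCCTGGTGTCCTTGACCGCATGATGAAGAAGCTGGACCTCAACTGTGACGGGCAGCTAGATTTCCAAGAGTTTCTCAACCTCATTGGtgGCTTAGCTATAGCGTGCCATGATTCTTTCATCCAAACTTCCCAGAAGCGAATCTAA
Tmsb10: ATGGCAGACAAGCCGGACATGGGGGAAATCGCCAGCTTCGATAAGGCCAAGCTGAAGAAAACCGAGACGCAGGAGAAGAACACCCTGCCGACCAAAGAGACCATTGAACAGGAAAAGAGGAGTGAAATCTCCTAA
Dap: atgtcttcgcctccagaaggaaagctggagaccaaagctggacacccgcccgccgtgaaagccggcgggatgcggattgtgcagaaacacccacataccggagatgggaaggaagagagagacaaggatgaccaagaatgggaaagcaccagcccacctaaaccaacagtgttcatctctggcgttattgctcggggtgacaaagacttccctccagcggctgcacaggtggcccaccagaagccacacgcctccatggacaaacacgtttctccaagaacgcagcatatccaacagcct

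The coding sequences of Fkbp1a, S100a11, Tmsb10 and Dap are 327, 297, 135 and 309 nt long. In the printed stretches, capitals cover 186 bases of Fkbp1a, 295 of S100a11, all 135 of Tmsb10 and 0 of Dap.

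Over all 8172 genes the median was 0.854 footprint counts per input count, and 39.0% of genes had more footprints than input. Fkbp1a and S100a11 stood highest among the 22, with 9.95 and 9.85 footprint counts per input count over the summed libraries. Pgd (6.14), Hnrnpd (6.12), Eif1 (6.04) and Dap (6.0) were also above 5, and 15 of the 22 lay between 4.00 and 4.99. The plot of summed footprints against summed input shows their input sums, which ran from 417 counts for Dap to 22424 for Ywhae.

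**Figure D1:**
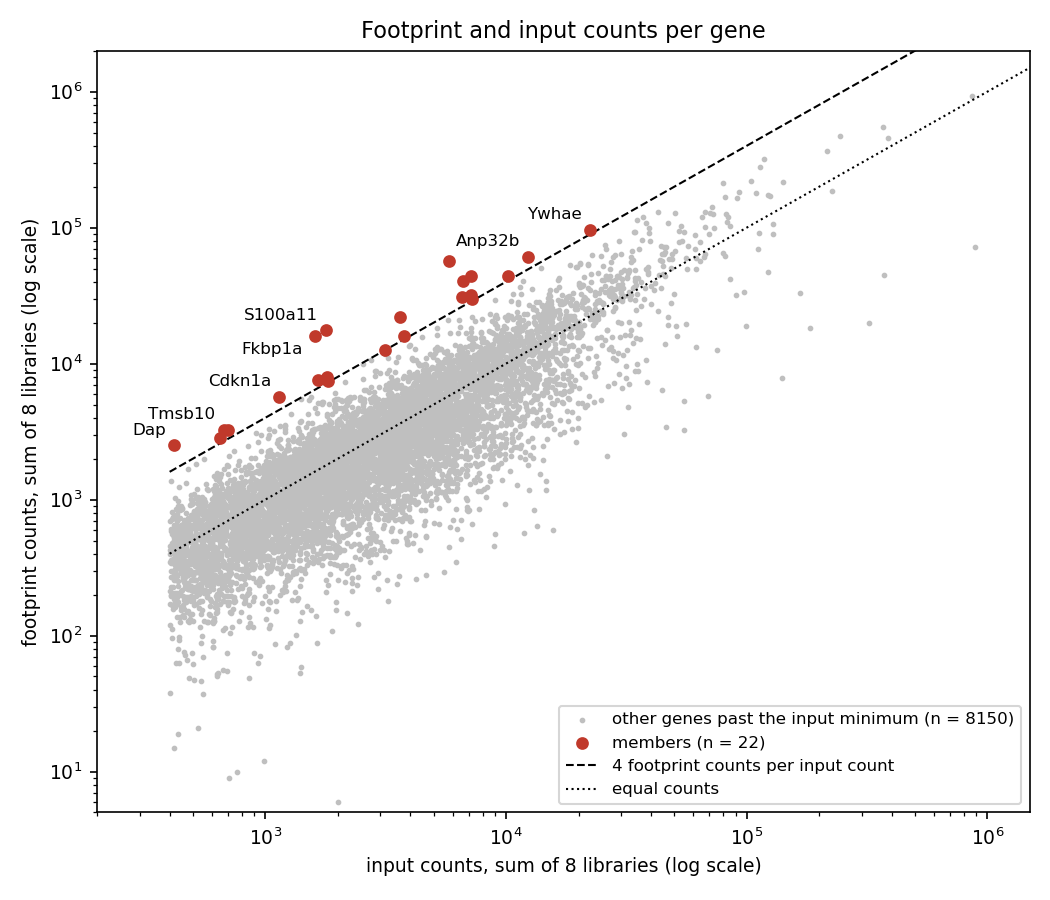
Summed footprint counts (y axis, log scale) against summed input counts (x axis, log scale) for 8172 genes, 1 point per gene; the 22 footprint-rich genes are red, the dashed line marks 4 footprint counts per input count and the dotted line equal counts. Fkbp1a and S100a11 have the highest ratios, 9.95 and 9.85 footprint counts per input count.

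Among the RNA-binding proteins were Hnrnpd, Pcbp1 and Snrpd3. Hnrnpd, which encodes the AU-rich element binding protein AUF1, a regulator of mRNA decay, had ratios from 5.26 at 30 min to 7.94 in untreated cells. Pcbp1, a poly(C)-binding protein, ranged from 3.52 at 30 min to 5.98 in untreated cells. Snrpd3, a core Sm protein of the spliceosome, ranged from 3.45 at 90 min to 4.78 in untreated cells.

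Folding and adaptor proteins made up a further 4 genes. Fkbp1a encodes FKBP12, the prolyl isomerase that binds the drugs FK506 and rapamycin. Its ratio was 12.6 in untreated cells (95% counting interval 10.8 to 14.7), 10.3, 8.74, 9.19, 12.0, 8.82 and 8.29 from 15 to 90 min, and 12.1 at 16 h, so it was above 8 at every time. Pfdn2, a subunit of the prefoldin chaperone for actin and tubulin, ranged from 3.27 at 90 min to 4.88 at 15 min. Ywhae and Ywhag encode 14-3-3 proteins, which bind phosphorylated partners. Ywhae had 5.92 in untreated cells and 3.68 to 4.54 after LPS, and Ywhag 3.62 to 5.40 over the 8 pairs.

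Chromatin and nuclear proteins were represented by Anp32b, Hmgn5 and Banf1. Anp32b, an acidic histone-binding protein, was at 4 or more in all 8 pairs, from 4.40 at 16 h to 5.85 in untreated cells. Hmgn5, a nucleosome-binding protein, had its highest ratio, 6.47, at 30 min, where 13 of the 22 genes had their lowest, and its own lowest, 3.53, at 45 min. Banf1, which bridges DNA and the nuclear lamina, met the rule most narrowly, at 4.00 over the sums, and ranged from 3.51 to 4.60.

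Small cytosolic proteins, enzymes and other cytoplasmic proteins made up 7 genes. S100a11, a calcium-binding protein, had 13 in untreated cells (95% counting interval 11 to 15.6), 10.1, 6.34, 11.5, 11.1, 8.45 and 6.63 from 15 to 90 min, and 12.2 at 16 h. Its 30 and 90 min pairs were the lowest. Pgd, the enzyme of the pentose phosphate pathway that oxidises 6-phosphogluconate, had 8.19 in untreated cells, 7.36, 5.00, 7.38, 7.06, 5.88 and 4.60 from 15 to 90 min, and 5.04 at 16 h. Dap, a small regulator of autophagy, had 9.83 in untreated cells and 4.41 to 6.72 after LPS. Only 36 input counts stand behind the untreated value, and its interval, 6.97 to 14.3, overlaps those of 6 of the 7 LPS pairs. Tmsb10, an actin-sequestering thymosin, ranged from 3.20 to 5.89, Nme2, a nucleoside diphosphate kinase, from 3.56 to 6.27, C1qbp, a mainly mitochondrial protein that also binds complement C1q, from 3.51 to 5.56, and Pstpip2, a membrane-binding F-BAR protein of macrophages, from 3.07 to 5.92.

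Regulators of translation, cell cycle and transcription were Eif1, Cdkn1a and Cited2. Eif1 encodes the initiation factor that guards start codon selection, and its ratio ranged from 4.79 at 30 min to 7.94 in untreated cells. Cdkn1a encodes p21, an inhibitor of cyclin-dependent kinases, and ranged from 3.39 at 30 min to 6.60 at 75 min. Cited2, a transcriptional co-regulator that binds CBP and p300, stayed within 3.79 to 4.82. The remaining row, RP23-284F8.1, ranged from 3.42 to 6.08. It had no match in the annotation used here and is given no function.

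Of the 22 genes, 8 were at 4 or more in all 8 pairs, among them Fkbp1a, S100a11, Pgd, Hnrnpd, Eif1, Dap and Anp32b. No pair of any of the 22 fell below 3.07 footprint counts per input count (Pstpip2 at 30 min). The median over the 8172 genes stayed between 0.80 and 0.923 across the 8 pairs. Just inside the rule were Ywhae (4.30), Snrpd3 (4.24), Ywhag (4.16), Pfdn2 (4.11) and Banf1 (4.00). Just outside were Rraga (3.91), Minos1 (3.88), Mt1 (3.84), Rab14 (3.80) and Grb2 (3.78), so the group has no gap at its edge. Left out by name, though they met both count criteria, were 7 genes, namely 5 histones, Uqcrq (6.35) and Atp6v0c. Atp6v0c, the proteolipid ring subunit of the vacuolar proton pump, had 10.0 footprint counts per input count, more than any of the 22.

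**Figure D2:**
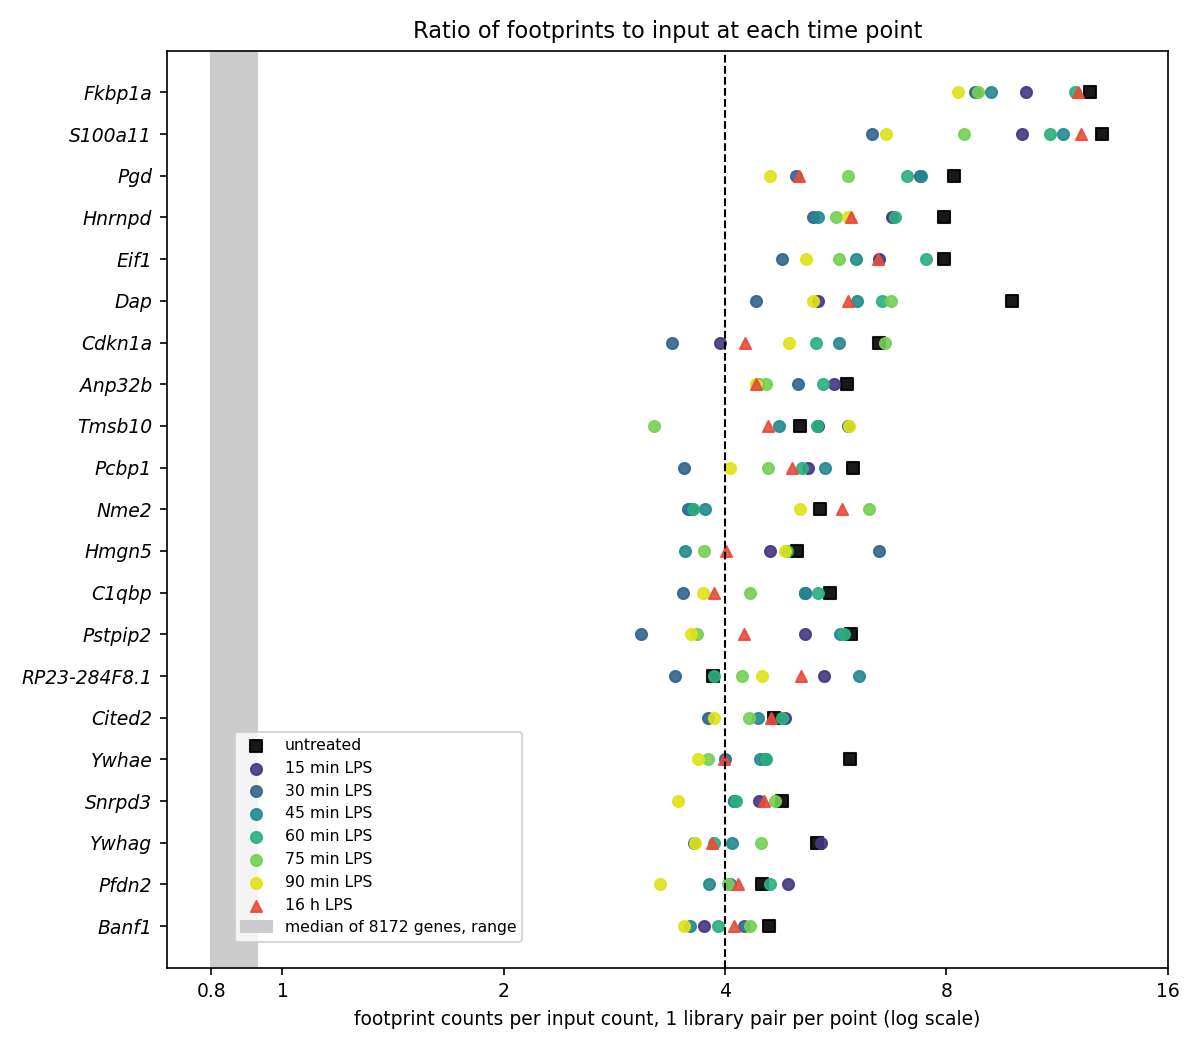
Footprint counts per input count (x axis, log scale) of 21 of the 22 genes (rows), 1 point per library pair; the square is the untreated pair, circles are 15 to 90 min of LPS, the triangle is 16 h, the dashed line is a ratio of 4 and the grey band is the range of the median of 8172 genes over the 8 pairs. The untreated pair is highest in 13 of the 21 rows, and the grey band, at 0.80 to 0.923, lies below every point.

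The 22 genes were spread over gene classes rather than filling any of them. Of 32 chromatin and high-mobility group genes with enough input, 3 were footprint-rich (9.38%), against 0.269% of all 8172. These were Anp32b, with 12354 input counts, Banf1, with 3126, and Hmgn5. The classes were chosen with earlier results of these data known, so this share is only described. All 3 genes also share coding stretches with other genes, as given below, so their ratios are uncertain. The class of Sm and spliceosome proteins, into which Hnrnpd fell by its name, held 2 of 84 (Hnrnpd and Snrpd3). Cytosolic chaperones and prolyl isomerases held 2 of 82 (Fkbp1a and Pfdn2). Initiation and elongation factors, cytoskeleton, S100 and annexin genes, carbon metabolism, nucleotide enzymes and cell cycle held 1 each, and 9 of the 22 fell in none of the classes. Among classes tied to the macrophage response to LPS, 0 of 39 cytokines and chemokines, 0 of 102 immune receptors and surface proteins and 0 of 60 interferon-induced genes reached the rule. The overall share of 0.269% comes to less than 1 gene in each of these lists, so nothing is read from these counts. These classes had medians of 1.09, 1.09 and 1.11 footprint counts per input count. At the other end, the 13 mitochondrially encoded genes had a median of 0.121.

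Relatives of the footprint-rich genes had lower ratios, by various distances. In 15 families compared, named after the 22 genes were known, only the 14-3-3 family held more than 1 of them. There the order was Ywhae 4.30, Ywhag 4.16, Ywhab 3.63, Ywhaz 2.63, Ywhah 2.36 and Ywhaq 1.61. Of the coding 29-base stretches, 96.6% in Ywhaz, 64.4% in Ywhah and 99.9% in Ywhaq also occurred in another gene. In Ywhae, Ywhag and Ywhab the share was 0%, 0.279% and 0%. The treatment of reads with several matches is unknown, so the ratios of Ywhaz, Ywhah and Ywhaq are uncertain. The part of this sharing in the order was not tested. The acidic nuclear proteins Anp32e and Anp32a had 3.62 and 2.61 beside 4.96 for Anp32b. Among 9 FK506-binding proteins, the next after Fkbp1a was Fkbp2 at 2.14, and among 6 S100 proteins the next after S100a11 was S100a10 at 2.59. The other CDK inhibitors were at 0.226 to 1.57 beside 4.99 for Cdkn1a, and the other pentose phosphate enzymes at 0.711 to 1.78 beside 6.14 for Pgd. Since the rule itself sets the footprint-rich genes above 4 and all relatives below it, only the distance between them is descriptive.

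**Figure D3:**
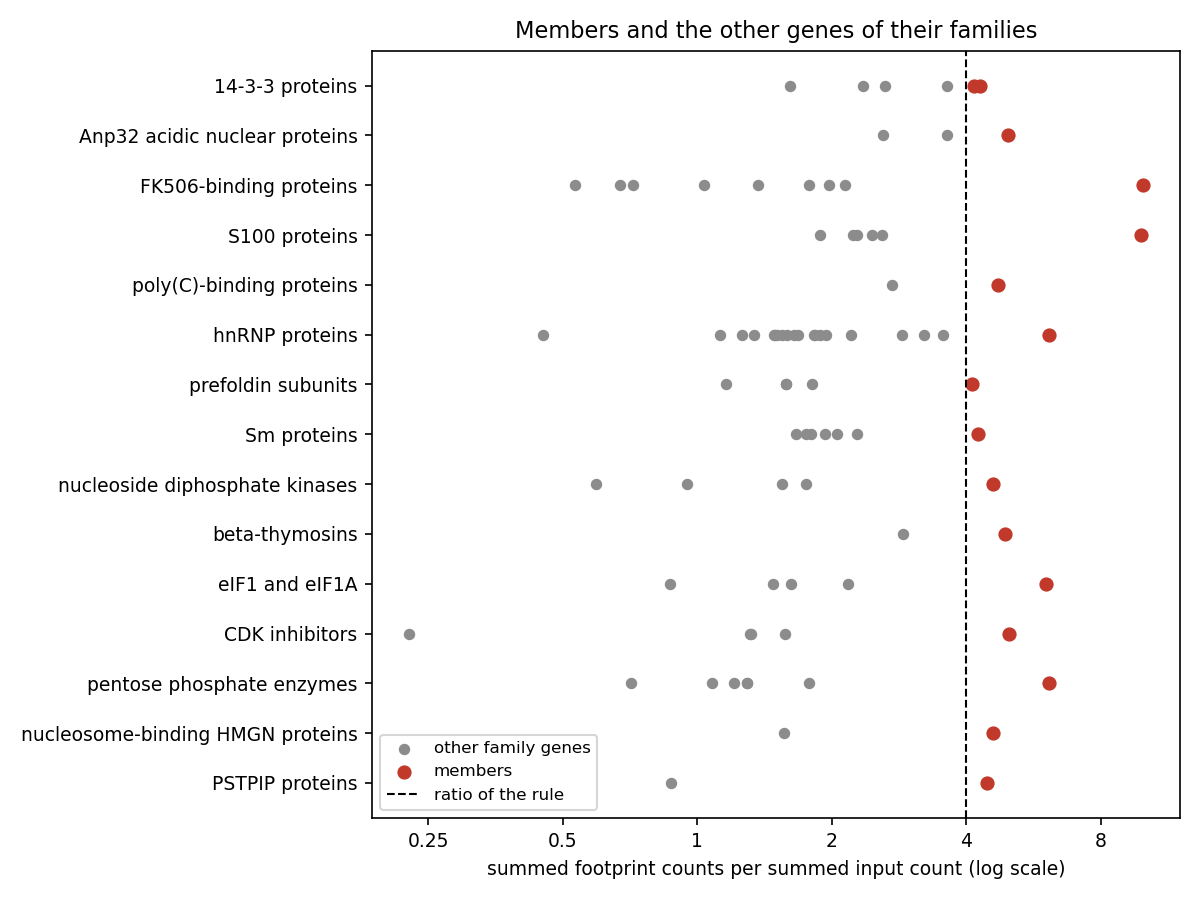
Summed footprint counts per summed input count (x axis, log scale) for the genes of 15 families (rows); red points are footprint-rich genes, grey points the other family genes with enough input, and the dashed line is a ratio of 4. The 14-3-3 row holds 2 red points at 4.16 and 4.30 close to a grey one at 3.63, whereas Fkbp1a and S100a11 stand alone at 9.95 and 9.85.

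Short coding sequences were common to the group, a property the rule did not use. A coding transcript was found for 21 of the 22 genes and for 7975 of the 8172. The coding sequence of 20 of the 21 was shorter than the median of the 7975, which 49.9% of all those genes are. The median length was 744 nt in the group against 1467 nt overall. With the 7975 genes ordered by coding length into 5 bins of nearly equal size, the numbers of footprint-rich genes from shortest to longest were 14, 5, 2, 0 and 0. The median ratio of all genes in those bins fell in the same order, 1.31, 0.994, 0.865, 0.723 and 0.553. Spearman's rho between ratio and coding length was -0.49 across the 7975 genes, which share the same libraries and are not independent.

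Coding sequence also made up less of the transcript, a median of 28.1% in the group against 53.6% over all genes. It was under 30% of the transcript in 11 of the 21, against 17.7% of all genes. Snrpd3, at 12.5%, and Hnrnpd, at 15.7%, had the lowest shares, and both have long annotated 3′ untranslated parts. The transcripts used were 3036 and 6811 nt long, while their shortest annotated coding transcripts have 442 and 1537 nt. Which form the cells held was not tested. A strong start context, counted as a purine 3 bases before the start codon together with a G right after it, was present in 11 of the 21 and in 47.4% of all genes.

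Shared sequence, which the rule did not use either, was found in part of the group. The median share of coding 29-base stretches found in another gene was 0.479% in the group and 0% over all genes. Spearman's rho between this share and the ratio was 0.12 across the 7975 genes. At least 10% of the 29-base stretches of the coding sequence recurred in another gene for 9 of the 21, against 15.0% of all genes. A pseudogene was among the other carriers for 10 of the 21, against 22.9%. The share was 100% for Tmsb10 and Nme2, 98.1% for Eif1, 88.8% for S100a11, 52.5% for Anp32b, 39.1% for Hmgn5, 19.8% for Banf1 and 18.7% for Fkbp1a. Eif1 shares such stretches with 24 pseudogenes and S100a11 with 8, while Nme2 shares them with the coding genes Nme1 and Gm20390. The sources used here do not say how reads with several matches were counted, so the levels and ratios of these 9 genes are uncertain, and the part of this sharing in the ratios was not tested. No shared stretch in the coding sequence was found for 9 others: Pgd, Dap, Cdkn1a, C1qbp, Pstpip2, Cited2, Ywhae, Snrpd3 and Pfdn2. Over the whole transcript, some of these had a share above 0, up to 1.99% for Pfdn2.

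**Figure D4:**
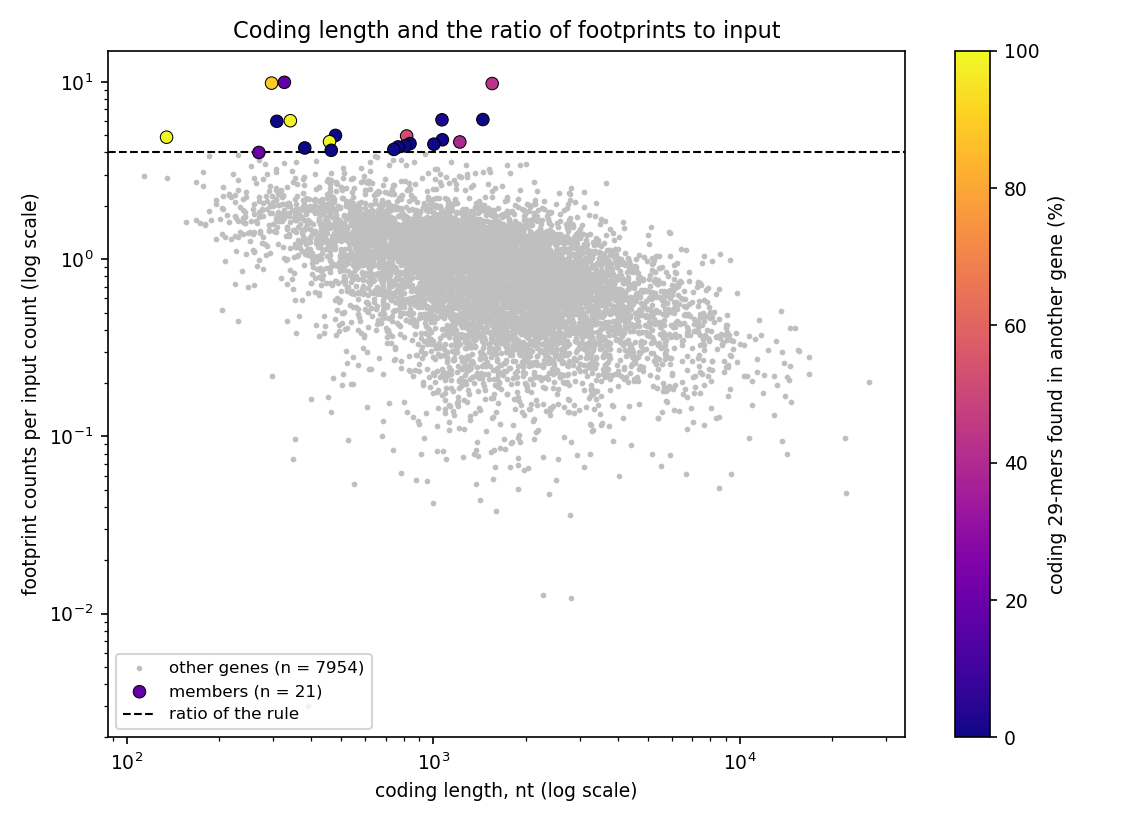
Summed footprint counts per summed input count (y axis, log scale) against coding length in nt (x axis, log scale), 1 point per gene; the 21 footprint-rich genes with a coding transcript are coloured by the percentage of coding 29-base stretches found in another gene, and the dashed line is a ratio of 4. In all, 20 of the 21 lie left of the overall median of 1467 nt, and both shared and unshared sequences occur among them.

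Whether LPS changed the density of these genes was tested with edgeR over all 16 libraries, as the change of footprints relative to input along a curve over 0 to 90 min and at 16 h. None of the 22 passed at an adjusted p under 0.05 in either test, where 1.25% of the 9529 genes tested passed over 0 to 90 min and 0.399% at 16 h. Over 0 to 90 min, Nme2 and Ywhae were under 0.05 before adjustment (9.12% of all genes were), and at 16 h Anp32b, Pgd, Ywhae and Ywhag were (10.5%). The smallest adjusted p was 0.47 over 0 to 90 min and 0.31 at 16 h. DESeq2 called 0 in both, but its values over 0 to 90 min do not include Dap. All 22 genes passed the filter on low counts set before the fits. A p above the threshold does not show that density stayed the same: the standard errors of the log2 density changes were 0.13 to 0.31 over 0 to 90 min and 0.16 to 0.33 at 16 h.

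Most estimates of the density change lay below 0 without passing the test. This side depended on the untreated pair and, up to 90 min, also on later pairs. The fitted log2 density at 90 min was below that at 0 min for 19 of the 22, with a median of -0.21, whereas 54.0% of all genes were below 0 and their median was -0.02. At 16 h, 17 were below 0 with a median of -0.18, against 40.2% of all genes and a median of 0.07. Pgd had -0.45 ± 0.18 (SE) at 90 min, and the lowest estimate of the group at 16 h, -0.55 ± 0.22. Cdkn1a had the highest at 90 min, 0.42 ± 0.29. Without the untreated libraries, where the value at 0 min is extrapolated from the later times, 10 of the 22 were below 0 at 90 min with a median of 0.03 (46.8% of all genes, median 0.02). At 16 h, 12 were then below 0 with a median of -0.04 (55.3% of all genes, median -0.06). Without the 90 min libraries, 16 were below 0 at the last time left, with a median of -0.13 (51.8% of all genes). Without the 30, 75 and 90 min libraries, 13 were, with a median of -0.04 (50.1% of all genes). In that fit 20 were below 0 at 16 h, with a median of -0.30 (40.0% of all genes). The rule took no account of time, and the 22 genes share the same libraries, so they are not independent of each other.

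The number of density calls depended on the 30 min libraries. Without them, 4 genes fell over 0 to 90 min, among them S100a11 (-0.65), Pgd (-0.58) and C1qbp (-0.36), with 3.23% of all genes called in that fit. At 16 h, Pgd alone fell without them (-0.60, 1.28% of all genes called). Without the 30, 75 and 90 min libraries together, a choice made after seeing the data, 6 fell at 16 h (3.06% of all genes called), among them Pgd (-0.65), Ywhae (-0.51), C1qbp (-0.49), Ywhag (-0.49) and Anp32b (-0.44). In that same fit 0 were called over 0 to 90 min (2.97% of all genes). Leaving out libraries left fewer residual degrees of freedom than the 4 of the main fit, so numbers of calls are not directly comparable.

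In raw counts between 0 and 90 min, the summed input of the genes varied more than their summed footprints. The median ratio of the 22 genes was 5.89 in untreated cells, 5.27, 4.18, 5.24, 5.32, 4.56 and 4.54 from 15 to 90 min, and 4.60 at 16 h. Their summed footprints varied from 66960 to 74558 counts between 0 and 90 min, while their summed input was 10893 counts in untreated cells, 15854 at 30 min, 13054 at 60 min and 16744 at 90 min. At 30 min the input of 16 of the 22 was above both neighbouring time points, which held for 34.9% of all 8172 genes. Footprints at 30 min were above both neighbours in 12 of the 22, against 26.8% of all genes. In raw counts at 90 min, input was above the untreated library in 18 of the 22 (37.5% of all genes) and footprints in 7 (23.2%). With libraries scaled as in the tests (TMM), fitted footprints at 90 min were below 0 min for 3 of the 22. Their median log2 change was 0.19. Fitted input was below 0 min for 1, with a median of 0.42. How far footprints moved thus depended on scaling. The untreated pair had the highest ratio in 14 genes, against 24.0% of all genes, and the 30 or 90 min pair the lowest in 19, against 41.7%. With 1 library per time, a property of the 30 and 90 min input libraries and a change in the cells cannot be told apart.

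The mRNA itself rose over the first 90 min for some of the genes, and footprints rose with it in 4. Input passed the test for 5 of the 22, all of which rose, where 26.2% of all genes passed, 14.9% upward and 11.3% downward. That count was 14 without the 30 min libraries (28.9% of all genes) and 9 without the 60 min ones (24.3%). Footprints passed for 7, of which 6 rose and 1 fell, where 20.5% of all genes passed, 12.2% upward and 8.3% downward. The median SE of the 22 genes was 0.10 in footprints and 0.20 in input, so the numbers of calls in each are not compared. Because the rule asked for more counts than the filter of the tests, the shares called are not read against those of all genes. Cdkn1a moved most. Its input was 34 counts in untreated cells, 65, 120, 133, 168, 164 and 222 from 15 to 90 min and 238 at 16 h, and its footprints were 220, 256, 407, 760, 892, 1082, 1083 and 1012 in the same order. All 7 LPS libraries of each kind were above the untreated one. The fitted log2 change of Cdkn1a at 90 min was 2.47 ± 0.22 (SE) for input, with an adjusted p of 4.5e-05. For footprints it was 2.88 ± 0.17, with an adjusted p of 2.6e-06.

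Cited2 rose early and came partly back. Its input was 551 counts in untreated cells, 694, 1411, 1762, 1662, 1599 and 1468 from 15 to 90 min and 1000 at 16 h, and its footprints were 2571, 3347, 5344, 7804, 7949, 6885, 5667 and 4612. The fitted log2 change was largest at 60 min, with 1.88 ± 0.17 in input and 1.88 ± 0.14 in footprints (adjusted p = 4.8e-05 and 1e-05). Eif1 rose by 1.15 ± 0.22 in input and 0.95 ± 0.12 in footprints on the log2 scale (adjusted p = 0.009 and 0.00043), and the input call was lost without the untreated libraries (adjusted p = 0.078). For Ywhag the corresponding rises were 0.96 ± 0.11 and 0.64 ± 0.10 (adjusted p = 0.0004 and 0.0018). In these 3 genes and in Cdkn1a both kinds of library rose, and none of the 4 passed the density test.

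Calls in 1 kind of library only were made for 4 genes, among them Anp32b, Pcbp1 and Nme2. Anp32b input rose by 0.48 ± 0.10 on the log2 scale (adjusted p = 0.0074), a call lost without the 90 min libraries (adjusted p = 0.24). Pcbp1 footprints rose by 0.51 ± 0.09 (adjusted p = 0.0054), a call lost when libraries were scaled by their totals. Nme2 footprints were 522 in untreated cells, 285, 342, 285, 354, 439 and 476 from 15 to 90 min and 519 at 16 h. Their fitted curve fell by 0.46 on the log2 scale at 45 min (SE 0.17, adjusted p = 0.013) and stood at 0.42 at 90 min, and its direction depended on the untreated and 45 min libraries.

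By 16 h the group had split. Footprints passed the test for 19 of the 22 genes, 8 upward and 11 downward, where 50.1% of all genes passed, 25.9% upward and 24.2% downward. Input passed for 8, of which 6 rose and 2 fell, where 55.6% of all genes passed, 28.6% upward and 27.0% downward. The rule took genes with more footprint than input counts. The median SE of the 22 genes at 16 h was 0.12 in footprints and 0.24 in input, so these numbers of calls are not compared. The rule also asked for more counts than the filter of the tests, above all in footprints. The share of the 22 genes called is therefore not read against that of all genes. S100a11 was high at this time only. Its input was 142 to 264 counts up to 90 min and 475 at 16 h, and its footprints were 1600 to 1849 up to 90 min and 5785 at 16 h. These are log2 changes of 1.72 ± 0.33 (SE) and 1.81 ± 0.11 (adjusted p = 0.001 and 1.2e-07), and the input call was lost without the untreated libraries (adjusted p = 0.098).

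Among the other genes that rose at 16 h, Cdkn1a was up by 2.76 ± 0.24 in input and 2.55 ± 0.20 in footprints on the log2 scale (adjusted p = 2.9e-06 and 8.6e-07). Cited2 remained up by 1.14 ± 0.18 and 1.08 ± 0.15, and Ywhag by 1.11 ± 0.13 and 0.55 ± 0.11. Dap, whose input was 36 to 68 counts up to 90 min and 84 at 16 h, rose by 1.09 ± 0.35 in input and 0.64 ± 0.14 in footprints, the input call being lost with DESeq2 and without the untreated libraries. Both calls of Cited2 at 16 h were lost with a linear time term (adjusted p = 0.25 and 0.29). Eif1 input rose by 0.80 ± 0.27, a call lost under 4 alternatives. Footprints of Eif1 (0.61 ± 0.13), RP23-284F8.1 (0.55 ± 0.13) and Tmsb10 (0.37 ± 0.13) rose too, though the Tmsb10 call was lost under 8 alternatives.

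The 11 genes whose footprints fell at 16 h included nuclear and RNA-binding proteins. The log2 changes in footprints were -0.97 ± 0.12 (SE) for Anp32b, -0.83 ± 0.14 for Hnrnpd, -0.61 ± 0.12 for Snrpd3, -0.58 ± 0.20 for Hmgn5, -0.43 ± 0.14 for Banf1 and -0.35 ± 0.11 for Pcbp1. C1qbp (-0.82 ± 0.10), Fkbp1a (-0.45 ± 0.11), Pgd (-0.37 ± 0.10) and Ywhae (-0.33 ± 0.10) fell as well. Hnrnpd footprints were 3189 at 16 h, below all 7 earlier libraries, which held 5215 to 6387 earlier. Input fell past the test only for Anp32b (-0.50 ± 0.12) and Snrpd3 (-0.52 ± 0.13), the Anp32b call being lost without the untreated libraries. Input estimates below 0 that did not pass included Fkbp1a (-0.45 ± 0.24) and Hnrnpd (-0.42 ± 0.20). C1qbp (-0.35 ± 0.26) and Banf1 (-0.29 ± 0.12) were others. Those of Pgd (0.26 ± 0.27) and Ywhae (0.18 ± 0.17) were above 0. None of the 11 genes passed the density test at 16 h in the main fit. Without the untreated libraries, 6 of the 11 falls in footprints were lost: Hmgn5, Ywhae, Banf1, Fkbp1a, Pcbp1 and Snrpd3.

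**Figure D5:**
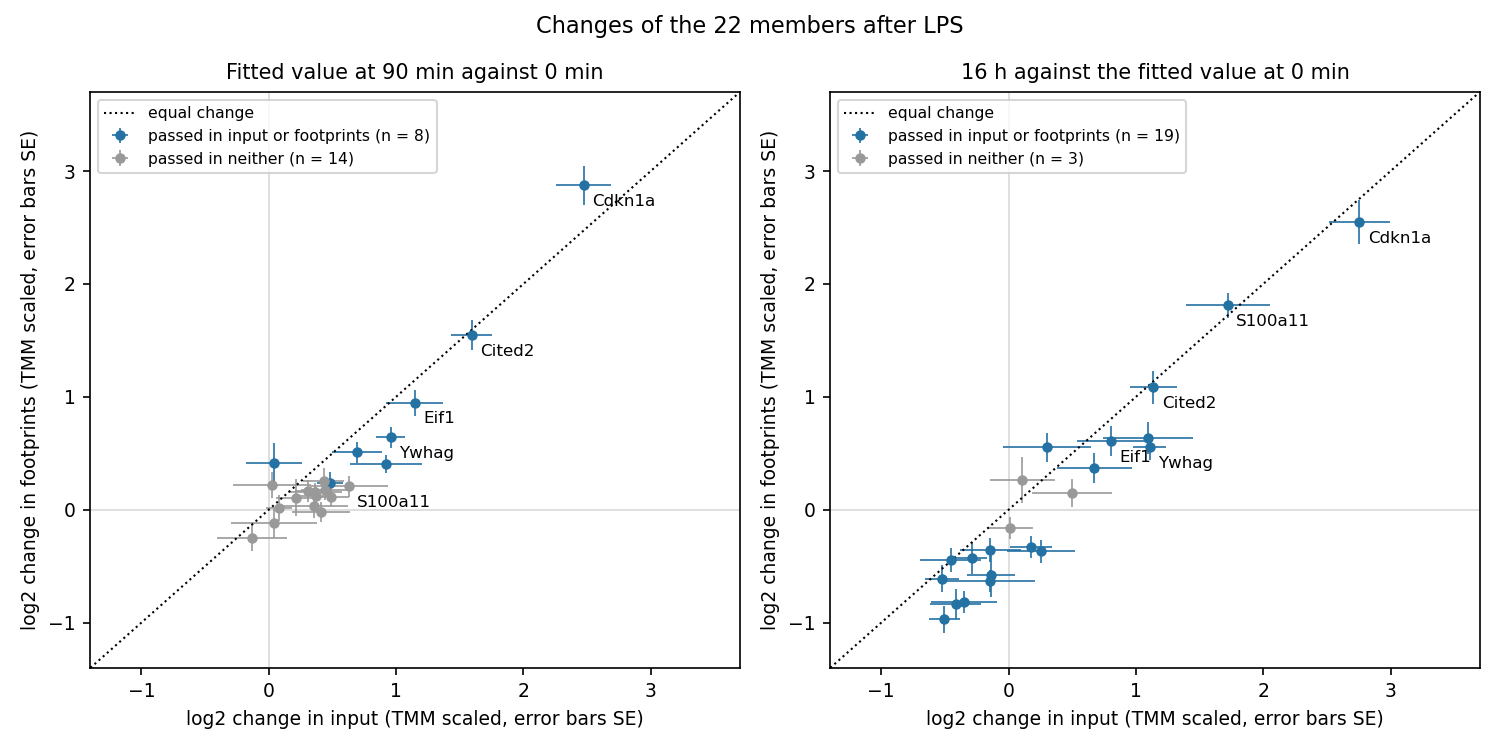
Log2 change in footprints (y axis) against log2 change in input (x axis) for the 22 genes, at 90 min (left, fitted value against 0 min) and at 16 h (right), each point a gene with its SE as bars; blue genes passed the test in input or footprints and the dotted line is equal change. Cdkn1a stands highest in both panels, at 2.88 and 2.55 in footprints, and at 16 h 11 genes lie below 0 in footprints past the test.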

How the data were processed

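Input RNA and ribosome footprints of RAW264.7 cells were measured at 8 time points, 1 library each. The authors deposited whole-number counts per gene and, per the file headers, the same counts as a DESeq2-normalised signal. The submitters' processing notes name Bowtie 0.12.8, DESeq2 1.18.1 and mm10. The sources used here do not give the counted features, strand or treatment of multiple matches. Totals were equal in all libraries, so original depth is unknown.

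The 22 genes, the gene classes and the families were chosen with earlier results of these data known. Of the 22, 1 gene is counted in the totals but is not reported here. Ratios are raw footprint counts over raw input counts, with exact 95% intervals covering counting error only. Transcript features came from GENCODE M21, which matched 13112 of 13832 symbols. The APPRIS principal transcript with the longest coding sequence was taken and, among equals, the longest transcript.

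Tests used the deposited counts of 9529 genes, those reaching 10 counts in 4 or more libraries of each kind. They were scaled by TMM and tested by quasi-likelihood in edgeR 4.0.16 (R 4.3.3), and p-values were adjusted over all 9529 by the Benjamini-Hochberg method (threshold 0.05). Terms were linear and quadratic in minutes, plus 16 h, which left 4 residual degrees of freedom, and fewer where time points were left out. The change over 0 to 90 min is the fitted curve's largest departure from 0 min, and 16 h is set against the fitted value at 0 min. Density used the interaction of these terms with the kind of library, with time point as a block. P-values rest on scatter about the curve, and the single 16 h libraries are taken to vary as the others do. The rule for named genes took the 12 highest ratios, the largest called density changes, the 2 most abundant genes of classes with at least 3 of the group, and the 5 genes on either side of the ratio of 4. The other genes were named after their values were seen. Alternatives were DESeq2 1.42.0, other scalings, filters and time terms, no block, and leaving out time points. The density fit was also run on simulated counts with known density changes and input constant over time. That simulation held no deviating library, so it cannot speak to the dependence on single libraries.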

Additional observations from a re-analysis of the deposited data

How the results depend on the processing

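Among changes past the threshold in either setting, directions reversed for 2 genes, both in footprints. Pgd footprints over 0 to 90 min, not called before, fell by 0.28 on the log2 scale with total counts as library sizes (adjusted p = 0.039). Nme2 footprints, whose fitted curve fell in the main analysis, rose by 0.39 with a linear term (adjusted p = 0.39). Leaving out 1 time point moved the Nme2 value between -0.59 and 0.93, and it was above 0 without the untreated (0.93) and 45 min (0.40) libraries. Of 2089 values compared, 51 gained and 37 lost a call, and 118 changed sign while past the threshold under neither setting.

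Leaving out 1 time point gave 0 to 4 of the 22 genes called for density over 0 to 90 min, 0 to 1 at 16 h, 4 to 14 for input over 0 to 90 min and 5 to 11 for input at 16 h. The 4 density calls and the 14 input calls came without the 30 min libraries (3.23% and 28.9% of all genes called), 9 input calls came without the 60 min ones (24.3%), and the 5 at 16 h without the untreated ones (37.8%). Without the 30, 75 and 90 min libraries, 6 density calls were made at 16 h (3.06%), in a fit with fewer residual degrees of freedom. A linear term gave 8 input calls over 0 to 90 min, with 2473 of 9529 genes called. The cause was not tested.

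Total counts as library sizes moved the median of all genes at 90 min by -0.26 in footprints, -0.13 in input and -0.12 in density (log2), and at 16 h by -0.16 in input. Over 0 to 90 min, calls among all genes went from 1160 up and 791 down to 738 and 2610 in footprints, from 1419 and 1074 to 988 and 1866 in input, and from 106 and 13 to 94 and 48 in density. At 16 h, those in input went from 2722 and 2573 to 2129 and 3362. Among the 22 genes, footprint calls over 0 to 90 min went from 6 up and 1 down to 4 and 3, and input calls at 16 h from 6 and 2 to 5 and 4.

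The labels carry no replicate numbers. Input and footprints of a time point came from 1 lysate, so time point was the block of the density tests, and with no replicate block 0 of the 22 genes were called over 0 to 90 min and 0 at 16 h.

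The rule itself would take 66 genes at a ratio of 3, 7 at a ratio of 5, and 39 with the deposited normalised signal, which included 21 of the 22. Minimum inputs of 200 and 800 counts gave 24 and 18, and leaving out 1 time point gave 20 to 22. Low input limits Dap, Cdkn1a, Tmsb10, Nme2 and RP23-284F8.1, each with fewer than 100 counts in some library.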
